A study of Homo sapiens with 6 samples.

Results

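FRG2B, RIMS1, DNAH8 and SHROOM3 were higher with raised IRF4 in Raji cells, an established line of malignant B cells (Burkitt's lymphoma, classed as germinal centre-derived). The genes were chosen on measured values, as genes known for roles outside lymphocytes whose counts were higher with IRF4 in these same libraries, so their changes are given as descriptions without a test. FRG2 and FRG2C, near-identical copies of FRG2B, were listed with them, which makes 6 genes. Rows were matched by Entrez identifier, and 4 of the 6 were found among 23459 rows. FRG2 and FRG2C are not analysed here as count rows, and enter only through their sequences and their neighbours.

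FRG2 and FRG2B, of a small gene family, lie near D4Z4 repeats at the ends of chromosomes 4 and 10. The repeats carry DUX4, a germline and early-embryo transcription factor that is kept silent in most adult cells, and both DUX4 and FRG2 are known for being switched on in facioscapulohumeral muscular dystrophy. RIMS1 encodes a scaffold of the presynaptic active zone that ties vesicles, through Rab3, to the release machinery. DNAH8 encodes a heavy chain of axonemal dynein, the motor of the sperm tail. SHROOM3 encodes an actin-binding protein that drives constriction of the apical side of epithelial cells. IRF4 is best known in B cells for directing activation and the step to plasma cells, as a transcription factor.

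Both groups of cells were infected with lentivirus for 5 days and then kept for 7 days in puromycin at 3 µg/ml. The virus carried human IRF4 cDNA in the IRF4-overexpressing group and no insert in the control group. Poly(A) RNA was sequenced in 3 libraries a group, with 27681979 to 46210702 counts each. Whether replicates come from separate infections is not labelled, so the spread between libraries may be technical. No promoter driving the cDNA is named, and the selected cells are populations with stable integrations.

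FRG2B and its copies are shown first, since their likeness decides what the FRG2B counts can mean. The 90 bases of coding sequence shown were picked as a stretch where these copies differ at the most positions, and are not a typical one. In them, counted as coding bases 274 to 363 of FRG2B, FRG2 has the same letters and FRG2C differs at 9 positions. Capitals mark those 9 positions.
FRG2B: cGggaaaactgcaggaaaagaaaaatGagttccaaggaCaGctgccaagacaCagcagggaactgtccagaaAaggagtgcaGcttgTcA
FRG2: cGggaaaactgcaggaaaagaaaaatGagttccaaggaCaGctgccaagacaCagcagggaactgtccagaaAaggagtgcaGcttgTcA
FRG2C: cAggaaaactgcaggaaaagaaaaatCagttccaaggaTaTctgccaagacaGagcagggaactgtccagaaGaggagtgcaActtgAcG
Over the whole FRG2B coding sequence of 834 bases, 829 were identical in FRG2 (99.4%, 5 mismatches) and 810 in FRG2C (97.1%, 24 mismatches). The sequences come from GENCODE v29 transcripts. The annotated FRG2B transcript has 890 bases, the same as the width deposited for its row. Of its 841 stretches of 50 bases, 636 (75.6%) also occurred in a transcript of FRG2, FRG2C or the pseudogene FRG2EP. Of its 791 stretches of 100 bases, 476 (60.2%) were shared. RIMS1, DNAH8 and SHROOM3 shared 0 of 7006, 0 of 14311 and 0 of 10971 stretches of 50 bases with another gene's transcript. How long the reads were, and what became of those with several matches, is not given in the sources used here. Those that fall within the shared stretches cannot be assigned to 1 copy by their sequence, and the FRG2B row is read below as a value for that sequence and not for the chromosome 10 copy alone.

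The windows upstream of the start sites are shown for FRG2B and RIMS1, the 2 of the 4 with the largest fitted folds. Sequences and positions are those of RefSeq on GRCh38.p14, with the 250 bases before the start printed 5′ to 3′ on the strand of the gene. The FRG2B window lies at chr10:133626796-133627045 on the minus strand, with a CCAAT box and a TATA box in capitals.
FRG2B: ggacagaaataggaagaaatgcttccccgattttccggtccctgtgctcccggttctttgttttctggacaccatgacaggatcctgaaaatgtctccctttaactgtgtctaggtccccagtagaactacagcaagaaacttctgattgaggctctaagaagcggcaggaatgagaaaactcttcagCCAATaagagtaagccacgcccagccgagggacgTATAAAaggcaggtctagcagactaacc
The RIMS1 window, before the first of 3 annotated starts, lies at chr6:71886300-71886549 on the plus strand, with a match to the AP-1 motif in capitals.
RIMS1: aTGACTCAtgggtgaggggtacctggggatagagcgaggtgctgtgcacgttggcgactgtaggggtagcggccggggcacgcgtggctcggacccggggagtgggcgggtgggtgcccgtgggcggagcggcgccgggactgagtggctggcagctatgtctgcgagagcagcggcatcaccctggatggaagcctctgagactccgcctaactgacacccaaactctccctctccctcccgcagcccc
Matches were counted on both strands in windows of 300 bases, from 250 before to 50 after each start. The FRG2B, FRG2 and FRG2C windows each held CCAAT, found in 34.6% of 35116 RefSeq promoters, and TATAAA, found in 11.5%. All 299 aligned bases of the FRG2 window were identical to FRG2B, and 289 of 299 in FRG2C. The first and second RIMS1 windows each held a match to the AP-1 motif TGANTCA, which 7.71% of promoters hold. CCAAT or its reverse was also found in the first and second RIMS1 windows and in the DNAH8 and SHROOM3 windows. These letter matches do not show that a factor binds. The letters of the interferon-response core GAAANNGAAA (3.57% of promoters), of the ETS-IRF composite GGAANNGAAA (2.82%) and of the DUX4-like motif TAANNNAATCA (0.888%) were not in these windows of the 6 genes. Base composition differed widely, with 67.7% and 68.3% GC in the DNAH8 and first RIMS1 windows, against 49.3% for FRG2B, 44.3% for SHROOM3 and a median of 58.7% over all promoters.

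For IRF4 itself the control libraries held 41, 37 and 50 counts and the IRF4-overexpressing libraries 5162, 4462 and 6054, in step with the labels. CPM values are counts relative to library sizes scaled by the trimmed mean of M values (TMM). By edgeR's quasi-likelihood test at an adjusted p under 0.05, 360 of 12079 tested genes were higher (2.98%) and 22 were lower (0.182%). The groups did not overlap, with the IRF4-overexpressing libraries above, for 1627 genes (13.5%). Libraries also differed within groups. A single axis held 83.4% of the variance around the group means, with control replicate 1 and IRF4-overexpressing replicates 2 and 3 on side A and the other 3 libraries on side B. Summed over 10 B-cell markers, the level was 5197 to 6141 CPM in control and 4827 to 6019 CPM in IRF4-overexpressing libraries, and all 10 markers were present. PTPRC was the only one called, and it was lower with IRF4 (log2 fold change -0.53, edgeR adjusted p = 0.0295).

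FRG2B had few counts in control cells and far more with IRF4. In control libraries, replicates 1 to 3 in order here and below, it had 8, 7 and 8 counts, or 0.199, 0.260 and 0.219 CPM. In the IRF4-overexpressing replicates it had 190, 234 and 281 counts, or 5.52, 6.32 and 5.82 CPM. Every IRF4-overexpressing library lay far above every control library, and within each group the 3 values were close together. The mean was 0.226 ± 0.0313 CPM in control and 5.89 ± 0.402 CPM with IRF4 (SD, n = 3 each). The log2 fold change was 4.70 (SE 0.17), or 26.0-fold, the 18th largest of all genes tested. The ratio of the summed counts, scaled for library size, was 26.5 with an exact 95% interval of 17.5 to 42.1, for counting error only.

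RIMS1 had the thinnest control counts of the 4. It had 2, 1 and 1 counts in control and 51, 51 and 73 with IRF4. In CPM that was 0.0498, 0.0372 and 0.0274 against 1.48, 1.38 and 1.51. The groups did not overlap, and the IRF4-overexpressing libraries differed from each other by less than counting error alone would give (a coefficient of variation of 4.87% against 13.1%). The log2 fold change was 5.12 (SE 0.29), or 34.9-fold. With only 4 control counts in all, the ratio of 37.9 carried an interval of 14.5 to 140.5, which spans that of FRG2B, so the order of these 2 genes by fold was not resolved.

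DNAH8 was likewise weak in control cells. Its counts were 11, 5 and 6 in control and 95, 87 and 125 with IRF4, or 0.274, 0.186 and 0.164 CPM against 2.76, 2.35 and 2.59 CPM. The lowest IRF4-overexpressing library lay well above the highest control library, control replicate 1. The means were 0.208 ± 0.0581 and 2.57 ± 0.207 CPM (SD, n = 3 each), a log2 fold change of 3.58 (SE 0.23), or 12.0-fold.

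SHROOM3 had the most control counts of the 4. It had 126, 99 and 154 counts in control and 825, 689 and 957 with IRF4. In CPM that was 3.14, 3.68 and 4.21 against 24.0, 18.6 and 19.8. The groups again did not overlap, with IRF4-overexpressing replicate 1 the highest and control replicate 1 the lowest. The means were 3.68 ± 0.538 and 20.8 ± 2.82 CPM (SD, n = 3 each), a log2 fold change of 2.50 (SE 0.16), or 5.66-fold. Its deposited width is 11920 bases, so the control level was 0.309 CPM per kilobase.

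**Figure D1:**
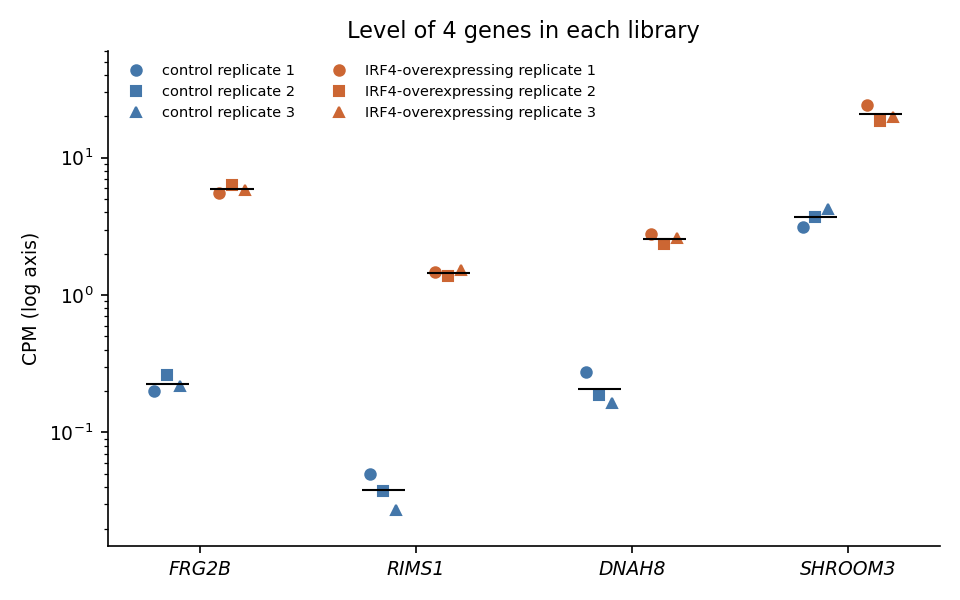
CPM (log axis) of FRG2B, RIMS1, DNAH8 and SHROOM3 in each of the 6 libraries, with the mean of each group as a black bar. For each gene the 3 IRF4-overexpressing libraries lie above the 3 control libraries, and SHROOM3 has control values of 3.14 to 4.21 CPM.

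No control library was at 0 for any of the 4 genes, so they are described as "higher" and not as "switched on". For RIMS1, at 2, 1 and 1 counts, and for FRG2B, whose counts may come from its copies, this does not settle whether the gene was on in control cells. SHROOM3 was also the only member that would have passed the filter on low counts by its control libraries alone. FRG2B, RIMS1 and DNAH8 passed through the IRF4-overexpressing libraries, where they had to be high, and their passing supports nothing. Per kilobase of deposited width, the mean level with IRF4 was 6.62 ± 0.452 CPM for FRG2B, 1.75 ± 0.236 for SHROOM3, 0.170 ± 0.0137 for DNAH8 and 0.116 ± 0.00564 for RIMS1 (SD, n = 3 each). At the deposited widths, no 2 genes next to each other in this order overlapped between libraries. The order of DNAH8 and RIMS1 with IRF4 depends on the length used. The longest annotated RIMS1 transcript has 7055 bases, against a deposited width of 12588. For DNAH8 the lengths are 14360 and 15121 bases. In control libraries the order was SHROOM3 at 0.309, FRG2B at 0.254, DNAH8 at 0.0138 and RIMS1 at 0.00303 CPM per kilobase, and SHROOM3 and FRG2B overlapped.

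The rise of FRG2B, RIMS1 and DNAH8 has to be read beside that of other weak genes. Of 329 tested genes with a control mean under 0.3 CPM, 91 were called higher (27.7%) and 0 lower by edgeR, with a median log2 fold change of 1.13. Of 11750 genes at or above that level, 269 were higher (2.29%) and 22 lower. A weak gene passes the filter mainly where it is high in the other group, so part of this gap is built into the filter. Without that filter, the 5429 detected genes that averaged 0.3 CPM or less over all libraries summed to 231 ± 9.06 CPM in control and 370.1 ± 10.7 CPM with IRF4 (SD, n = 3 each). Its part in the members' values was not tested.

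SHROOM3 also varied with the axis within groups. On the log2 scale it lay 0.19 below its group mean in control replicate 1 (side A) and 0.21 above it in IRF4-overexpressing replicate 1 (side B). Its coefficient of variation with IRF4 was 13.5%, against 3.48% from counting alone. FRG2B, at 6.83% against 6.52%, and DNAH8, at 8.06% against 9.89%, varied about as much as counting gives. The SHROOM3 log2 fold change was as large within each side, at 2.61 in side A and 2.63 in side B, where each fit has a lone library in 1 group.

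**Figure D2:**
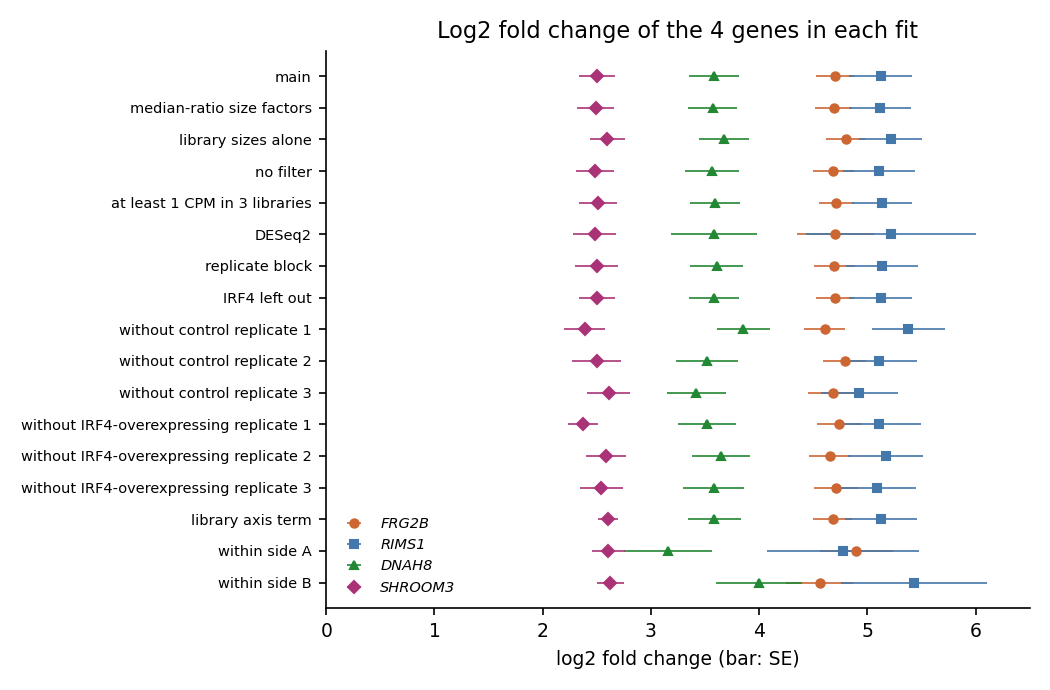
Log2 fold change with its standard error for the 4 genes in the reported fit and under 16 alternatives, 1 row each. All values lie above 2, SHROOM3 is the lowest in each row and DNAH8 is always next.

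Other rows of the FRG2 family were read beside FRG2B. Of 13 family entries in RefSeq, 3 had a matched row, namely FRG2B and the pseudogenes FRG2EP and FRG2DP. FRG2EP, a transcribed pseudogene on chromosome 20, had 3, 3 and 0 counts in control and 32, 42 and 52 with IRF4. Its groups did not overlap, at 0.0747, 0.112 and 0 CPM against 0.930, 1.13 and 1.08 CPM. The fit gave a log2 fold change of 4.10 with an SE of 0.51 (edgeR adjusted p = 0.00964). FRG2EP passed the filter on low counts only through the IRF4-overexpressing libraries, so that p is no support. The ratio of its summed counts was 18.2, with an interval of 8.12 to 50.5. FRG2DP had 0 counts in all 6 libraries. The FRG2EP row was noticed after its values were seen, and 22.8% of its 50-base stretches but 1.49% of its 100-base stretches also occur in FRG2B, FRG2 or FRG2C transcripts. How far it shares reads with FRG2B thus depends on the read length.

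FRG2B held most of the counts of the 3 matched family rows in both groups. The other 10 family entries had no matched row and do not enter this share. Rows without a symbol do not either, and whether any of them belongs to the family is not known here. The only such row called higher by edgeR, Entrez gene 100288255, had 30, 16 and 11 counts in control and 345, 483 and 543 with IRF4, more than FRG2B, and was singled out after its values were seen. The FRG2B share with IRF4 was 85.6%, 84.8% and 84.4% in replicates 1, 2 and 3, and 84.8% when summed (exact 95% interval 82.2 to 87.2%). In control libraries the share was 72.7%, 70.0% and 100%, and 79.3% when summed (60.3 to 92.0%), from 29 counts. The summed control and IRF4 intervals overlap, and a difference in the split between the groups was not tested. Per kilobase, FRG2B was at 6.21, 7.10 and 6.54 CPM with IRF4 and FRG2EP at 0.224, 0.273 and 0.260 CPM, which puts 96.3% of the level per length of these rows in FRG2B. That value uses the deposited FRG2EP width of 4150 bases, and with its annotated transcript of 835 bases the share was 84.1%. Aligned to the FRG2B transcript, FRG2 was 99.1% identical, FRG2C 96.7% and FRG2EP 94.7%.

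**Figure D3:**
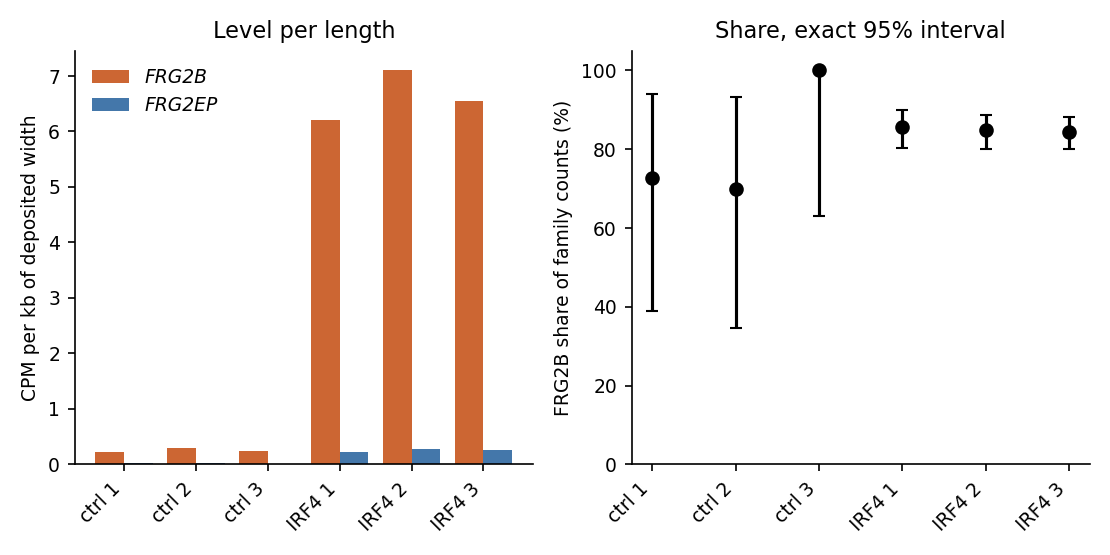
Left, CPM per kilobase of deposited width of FRG2B and FRG2EP in each library. Right, the FRG2B share of the counts of the matched FRG2 rows in each library with its exact 95% interval, which is wide in the control libraries (ctrl) and narrow in the IRF4-overexpressing ones (IRF4).

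DUX4 and the genes it is known to activate were then read. The list of 33 genes also holds FRG1, from the D4Z4 region, and its pseudogene FRG1BP. Of the 33, 31 had a row, 22 of these were at 0 in all libraries and 5 were tested, FRG1 and FRG1BP among them. No gene of the list was called, edgeR gave 0 at an unadjusted p under 0.05 in either direction, and DESeq2 called 0. Over all genes tested, 11.3% were higher and 8.18% lower at that unadjusted threshold, and DESeq2 called 4.29% higher and 1.54% lower. These shares are the background for the counts of every list and of the neighbours below. When IRF4-overexpressing replicate 1 was left out, 1 gene of this list was called higher. In that fit, here and below, group and axis are mixed. DUX4 was at 0 in all 6 libraries, and ZSCAN4, a target known from early embryos, had 3 counts in 1 IRF4-overexpressing library and 0 elsewhere. FRG1, the neighbour of the FRG2 locus, was at 18.9, 16.7 and 17.8 CPM in control and 18.02, 24.0 and 24.5 CPM with IRF4, and the groups overlapped (log2 fold change 0.32, edgeR adjusted p = 0.272). KHDC1L had a log2 fold change of 0.54 (edgeR adjusted p = 0.375) on 6 to 14 counts a library. Repeated copies such as DUX4 can lose reads where those with several matches are discarded, and whether that was done is not given in the sources used here.

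Of 20 genes listed as silencers of the D4Z4 repeat or otherwise tied to it, 19 were tested and 0 were called higher or lower by edgeR. DNMT3A, the one not tested, had 7, 13 and 11 counts in control and 6, 5 and 6 with IRF4. At an unadjusted p under 0.05, 7 were lower and 0 higher, and DESeq2 called 1 lower. CTCF and PARP1, which are tied to the repeat but are not plain silencers of it, are among those 7. With a term for the axis in the fit, 3 were called lower, beside 389 of 12079 over all genes tested. Without IRF4-overexpressing replicate 1, 12 were called lower, beside 3071 of 12226 over all genes tested. Their median log2 fold change was -0.27, against 0.01 over all genes tested. DNMT3B, a de novo DNA methyltransferase, was at 49.6, 53.8 and 53.2 CPM in control and 43.5, 36.6 and 38.4 CPM with IRF4, with no overlap (log2 fold change -0.40, edgeR adjusted p = 0.0952). TRIM28, a corepressor that recruits histone methylation, had a log2 fold change of -0.44 (edgeR adjusted p = 0.176). SMCHD1, whose loss is a known cause of the dystrophy, was at 328 to 352 CPM in control and 347 to 378 CPM with IRF4.

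Presynaptic genes other than RIMS1 were mostly not called. Of 42, 23 were tested, 2 were called higher and 0 lower, and the median log2 fold change was -0.13. At an unadjusted p under 0.05, edgeR had 3 higher and 2 lower, and DESeq2 called 2 higher and 0 lower. Without IRF4-overexpressing replicate 1, 3 were called higher and 8 lower. UNC13C, a vesicle-priming protein gene, rose from 1.57, 1.19 and 1.07 CPM to 5.87, 9.51 and 9.82 CPM (log2 fold change 2.71, SE 0.26, edgeR adjusted p = 0.0035). ERC2, an active-zone scaffold, rose from 1.57, 1.53 and 1.61 to 3.92, 3.67 and 3.89 CPM (log2 fold change 1.28, SE 0.12, edgeR adjusted p = 0.00365). Both kept their call in 15 of 16 alternatives and lost it with the replicate number as a block.

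Other RIMS genes were present without raised IRF4. RIMS3, a shorter relative of RIMS1, had 9308, 6431 and 8935 counts in control and 8916, 9004 and 11372 with IRF4. Its mean over the libraries was 242 CPM, and its log2 fold change was 0.04 (edgeR adjusted p = 0.743). RIMS2, at 18.9 CPM in control, had a log2 fold change of 0.11, and RIMS4, below 1 CPM, had -0.66. None of the 3 was called by edgeR, which had 0 higher and 1 lower at an unadjusted p under 0.05, or by DESeq2.

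Axonemal genes were mostly not called either. Of 48, 22 were tested, 2 were called higher and 0 lower, and the median log2 fold change was 0.23. At an unadjusted p under 0.05, edgeR had 5 higher and 3 lower, and DESeq2 called 3 higher and 0 lower. Without IRF4-overexpressing replicate 1, 5 were called higher and 4 lower. Leaving out each of the other 5 libraries gave 0 or 1 higher. SPAG6, part of the central pair of the axoneme, had 5, 1 and 0 counts in control and 21, 23 and 36 with IRF4 (fitted log2 fold change 3.45, SE 0.59, edgeR adjusted p = 0.0288). SPAG6 passed the filter on low counts only through the IRF4-overexpressing libraries, so that p is no support. The ratio of its summed counts was 11.5, with an interval of 5.08 to 32.4. Its call was lost in 4 of the 6 fits that leave out a library. DNAI4, a dynein intermediate chain, rose from 0.498, 0.521 and 0.410 to 0.959, 1.32 and 0.974 CPM (log2 fold change 1.19, edgeR adjusted p = 0.0483), and its call was lost in 5 of those 6 fits.

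The other axonemal dynein heavy chains were weak. Of 12 with a row, 5 were tested and 0 were called by edgeR, with log2 fold changes from -0.71 for DNAH5 to 1.44 for DNAH1. At an unadjusted p under 0.05, edgeR had 2 higher and 1 lower, and DESeq2 called 1 higher. DNAH1, which is also a sperm-tail motor, was at 0.509 CPM in control and 1.39 CPM with IRF4 (edgeR adjusted p = 0.0559).

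Few genes that work with SHROOM3 were called. Of 37 genes of the Shroom family and of actomyosin and its control, 29 were tested, 1 was called higher and 0 lower, and the median log2 fold change was -0.17. At an unadjusted p under 0.05, edgeR had 2 higher and 5 lower, and DESeq2 called 1 higher and 2 lower. Without IRF4-overexpressing replicate 1, 5 were called higher and 15 lower. EVL, which lengthens actin filaments, rose from 2.07, 1.71 and 1.91 to 4.51, 6.13 and 6.36 CPM (log2 fold change 1.57, SE 0.18, edgeR adjusted p = 0.00621). EVL kept its call in 15 of 16 alternatives and lost it with the replicate block. SHROOM1 and SHROOM4 were at 0 in all libraries and SHROOM2 had 1 count in all, so SHROOM3 was the one family member with a measurable level.

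**Figure D4:**
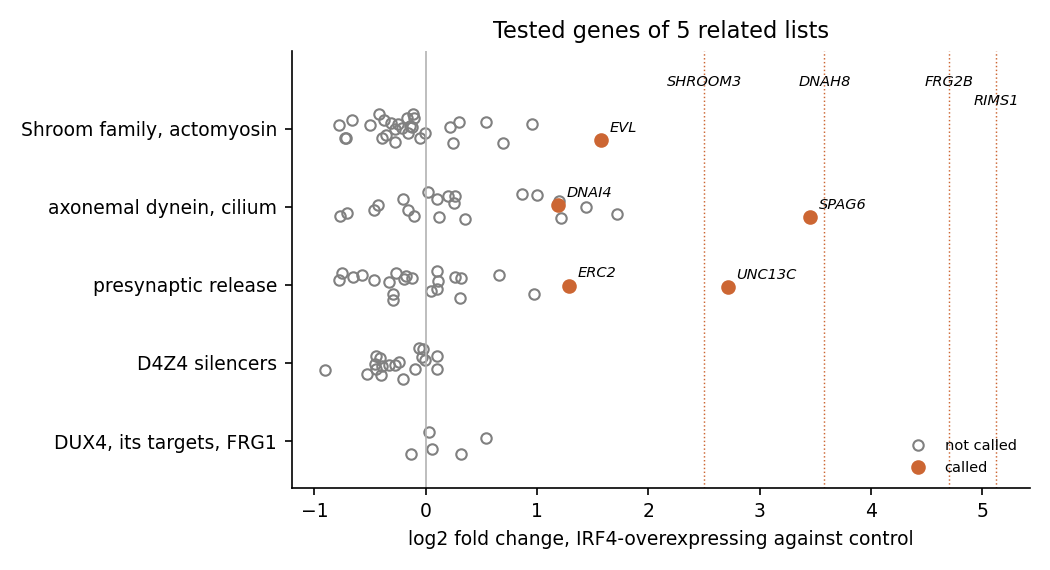
Log2 fold change of each tested gene of 5 lists (1 point a gene, spread vertically for legibility), with called genes filled and named. Dotted lines mark the 4 members, and most list genes lie between -1 and 1.

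Genes beside the 6 loci were compared next, 5 on either side in RefSeq order where the chromosome allowed it. Of 55 distinct neighbours, 20 were at 0 in all libraries, 18 were tested, 1 was called higher and 0 lower by edgeR, and the median log2 fold change was 0.07. At an unadjusted p under 0.05, edgeR had 5 higher and 2 lower, and DESeq2 called 2 higher and 0 lower. Without IRF4-overexpressing replicate 1, 7 were called higher and 5 lower. Of the 10 genes beside FRG2, 7 were at 0 throughout, among them several DUX4-like repeat copies, and FRG1 was the only one tested. Beside FRG2B, SCART1 (0.64) and CYP2E1 (0.52) were tested and not called (edgeR adjusted p = 0.11 and 0.083). Both were higher with IRF4 without overlap between the groups, as were 13.5% of all genes tested. The neighbours of RIMS1 ran from -0.47 for the potassium channel gene KCNQ5 to 0.54 for KHDC1L, those of DNAH8 from -0.57 for ZFAND3 to 0.29 for GLO1, and those of SHROOM3 from -0.53 for CCNI to 0.43 for SCARB2. FRG2B, RIMS1, DNAH8 and SHROOM3 were chosen for their rise in these libraries, so the smaller changes of their neighbours are no support.

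The called neighbour was PDZRN3, a ubiquitin ligase gene 4 places before FRG2C. Neighbours were taken by order, and their distances are not given. It had 0 counts in every control library and 31, 28 and 31 with IRF4, 90 in all. With the floor for that group set at 3 counts in all, it was at least 26.0-fold higher (edgeR adjusted p = 0.00964). PDZRN3 passed the filter on low counts only through the IRF4-overexpressing libraries, so that p is no support. Of all tested genes with a control mean under 0.3 CPM, 27.7% were called higher and 0 lower. The PDZRN3 call was lost without IRF4-overexpressing replicate 2 and with the replicate block.

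**Figure D5:**
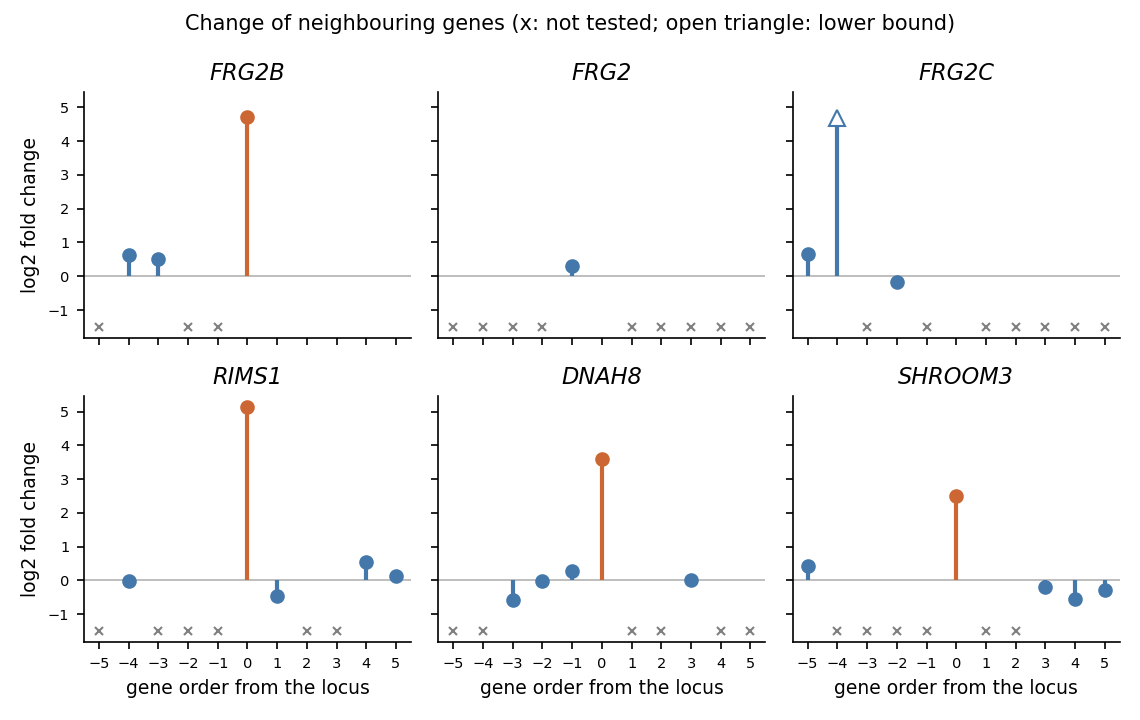
Log2 fold change of the genes in order on either side of each locus (x axis, order from the locus), with the member at 0 in orange where it has a row. Tested neighbours lie between -0.57 and 0.66 except PDZRN3, 4 places before FRG2C, drawn at its lower bound.

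Genes whose levels ran most closely with each member were named by Pearson's r of log2(CPM + 0.5) over the 6 libraries, among tested genes that averaged at least 0.5 CPM. The libraries form 2 groups that differ for all genes named, so r is high for any called gene with little spread, and no p is given. Nearest to FRG2B were DOCK10 (0.9996), CD28 (0.998) and IFI44L (0.998). Among the nearest to RIMS1 were PDE4B and IRF9 (0.999 each). Among the nearest to DNAH8 were ITGAM (0.999) and RIMS1 (0.998). Nearest to SHROOM3 were TTC39C, TAGAP and CXCL9 (0.999 each). These genes differ widely in level and size of change, as DOCK10 with 3.52 and 6.83 CPM and IFI44L with 2.21 and 146.9 CPM show beside FRG2B.

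Markers of other cell types were read for the whole lists. The 10 epithelial markers summed to 0.199 to 0.301 CPM in control and 0.407 to 1.03 CPM with IRF4, with none tested and EPCAM, KRT18, KRT19 and CLDN7 at 0 in all libraries. CDH1, the cadherin of epithelial junctions, made up most of the rise, with 3, 0 and 2 counts in control and 9, 29 and 16 with IRF4, and DESeq2 called it higher. The 11 markers of ciliated and sperm cells summed to 0.848 to 1.04 and 1.30 to 1.48 CPM, with 6 at 0, among them FOXJ1, TEKT1, PRM2 and TNP1. RSPH1, a radial spoke gene, had 8, 7 and 9 counts in control and 19, 18 and 13 with IRF4 (edgeR adjusted p = 0.262). The 10 neuronal markers summed to 182 to 221 and 163 to 210 CPM, nearly all of it from TUBB3, with SNAP25, SYT1, RBFOX3 and NEFL at 0. The 10 muscle and mesenchymal markers summed to 0.647 to 1.15 and 1.73 to 4.36 CPM, with MYOD1, MYOG and DES among 5 at 0. COL1A1, a collagen gene, had 19, 30 and 31 counts in control and 129, 44 and 81 with IRF4 (edgeR adjusted p = 0.192), and LUM, which encodes a matrix proteoglycan, had 3, 0 and 0 against 13, 14 and 9 and was called higher by DESeq2.

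The 10 markers of kidney and of 293T cells, which made the virus, summed to 2.82 to 3.42 and 4.42 to 6.45 CPM, with 6 at 0. The 10 myeloid markers summed to 2.98 to 3.39 and 5.86 to 9.16 CPM, with 3 at 0 and ITGAM called higher. CSF1R, a growth factor receptor gene, had 13, 14 and 16 counts in control and 140, 45 and 67 with IRF4 and was called by DESeq2 alone. The 10 T and NK cell markers summed to 0.409 to 0.957 and 0.872 to 0.974 CPM, with 3 at 0. The epithelial, ciliated, muscle, kidney and myeloid sums did not overlap between the groups and were higher with IRF4, as the members were. So was the sum over the 5429 detected genes that averaged 0.3 CPM or less, at 220.5 to 237 CPM in control and 362.1 to 382.3 CPM with IRF4. The marker sums are thus not set apart from weak genes at large, and their part in the members' values was not tested.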

How the data were processed

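RNA-seq was read from 1 deposited table of raw counts per gene, whole numbers with 1 column for each of 6 libraries, 3 per group, and no scaling by the authors that the values show. A deposited width per gene, another kind of value taken as bases from the header, served for levels per kilobase. Per the submitters' processing notes the builds were mm9 and hg19. The aligner, counting tool, annotation and strand setting are not given in the sources used here. Per the labels' protocols the libraries were stranded, poly(A)-selected Illumina libraries. No genome of the files' build was used, so positions are those of RefSeq tables on GRCh38.p14. Of 23459 rows, 23308 matched a RefSeq symbol, and the other 151 stayed in under their identifiers.

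The 4 members, all lists and the comparisons were chosen with earlier results of these data known. edgeR 4.0.16 (R 4.3.3) was fitted over the whole table with TMM scaling, filterByExpr, a group-only design and a two-sided quasi-likelihood F-test, which kept 12079 genes. The threshold for a call was 0.05, adjusted by Benjamini-Hochberg. SE is the absolute log2 fold change divided by the root of F. Intervals are exact at 95% and cover counting error only. The planned share of FRG2B among FRG2, FRG2B and FRG2C was computed over the FRG2 family rows that matched. Named genes were the members, IRF4, the called genes of each list and of the neighbours (at most 4 a list, or the 2 smallest p where none was called), the relatives of the members, and the 3 genes most like each member, of which not all are reported here. SMCHD1, ZSCAN4, DUX4, FRG1BP, CTCF, PARP1, the other neighbours, FRG2EP, FRG2DP, DNMT3A, the row without a symbol and the single markers of other cell types were named after their values were seen.

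Alternatives were no filter or one of at least 1 CPM in 3 libraries, scaling by library sizes alone or by median ratios, DESeq2 1.42.0, a replicate block, and fits without IRF4 or without each library. A term for the library axis and fits within its sides were added after the data were seen. The deviations of same-numbered libraries did not run together (correlations of -0.742, -0.293 and -0.623), so the numbers were not taken as pairs. No pair of replicates agreed within sampling noise (chi-square per gene 6.74 to 196). The test was checked on simulated counts with equal scatter for all genes and no axis within groups. That check does not cover the library axis found here. Alignments used Biopython 1.88, and figures matplotlib 3.10.9.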

Additional observations from a re-analysis of the deposited data

How the results depend on the processing

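FRG2B, RIMS1, DNAH8 and SHROOM3 stayed higher with IRF4 in all 16 alternatives, with log2 fold changes of 4.56 to 4.90, 4.77 to 5.43, 3.16 to 4.00 and 2.38 to 2.63. Values moved by more than the spread between libraries for FRG2B within side A (4.90), for RIMS1 without single libraries (4.93 to 5.38) and within sides A and B (4.77 and 5.43), and for DNAH8 within sides A and B (3.16 and 4.00). With the replicate block the log2 fold changes of FRG2B, RIMS1, DNAH8 and SHROOM3 were 4.69, 5.13, 3.61 and 2.50. Over all genes tested, 360 were higher, against 571 with DESeq2, 3 with the replicate block (926 at an unadjusted p under 0.05 in that edgeR fit), 709 with the axis term, 2309 within side A, 858 within side B and 120 to 2436 without single libraries. Against 22 lower there were 13 with library sizes alone, 205 with DESeq2, 0 with the block (426 unadjusted), 389 with the axis term, 3118 and 402 within sides A and B, and 3 to 3071 without single libraries. Both maxima came without IRF4-overexpressing replicate 1, which leaves the groups mixed with the axis. The median log2 fold change over genes was 0.01, and 0.10 with library sizes alone.

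In the 5 related lists, 5 genes were higher, against 3 with the filter at 1 CPM, 0 with the block, 8 with the axis term, 21 within side A and 3 to 14 without single libraries. There 0 were lower, against 3 with DESeq2, 8 with the axis term, 36 and 8 within sides A and B and 0 to 39 without single libraries. Of the neighbours, 1 was higher, against 2 with library sizes alone, with DESeq2, with the axis term and within side B, 7 within side A, 0 with the filter at 1 CPM or the block and 0 to 7 without single libraries. Lower neighbours numbered 0, against 5 within side A and 0 to 5 without single libraries. Again the maxima came without IRF4-overexpressing replicate 1. The FRG2B share was 96.3% per kilobase (84.1% with the annotated FRG2EP length), against 84.8% of counts. Axis-side fits hold a lone library in 1 group, assumed to vary like the others. The causes of these differences were not tested. With 4 to 23 control counts, the folds of RIMS1, DNAH8 and FRG2B are limited by depth.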
